A study of Mus musculus with 2 samples.

Results

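Autosomes of the mouse genome build NCBI37/mm9 were cut into fixed bins of 100 kb, counted from the first base of each chromosome, and the bins overlapped by at least 10 R-loop peaks were kept. These bins, called dense bins here, numbered 54 of 23978 autosomal bins with at least 50% of their bases assembled, or 0.225%. The peaks overlapping them numbered 593 of the 21838 autosomal peaks and 22132 peaks in all, or 2.72% of the autosomal peaks. The bins and their peaks were thus selected on the peak counts themselves, and every count of peaks per bin below is a description that was not tested. The peaks came from DRIP-seq of primary neural stem and progenitor cells (NSPCs), which were isolated from the frontal brains of C57BL/6 mice at postnatal day 7 and cultured. According to the methods, but not the sample labels, the cells were treated with aphidicolin, an inhibitor of replicative DNA polymerases that causes mild replication stress. The control library is genomic input without antibody, from the same cells and strain, and was not used here. The series is 1 peak list of chromosome, start and end, in which DNA from several DRIP reactions was pooled, and how replicates were combined into it is not given in the sources used here. No untreated cells were compared, the sequencing depth is unknown from the list, and no value below has a replicate error.

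R-loops are structures of 3 strands, in which RNA pairs with its template DNA strand and the other DNA strand is left unpaired. They form mostly during transcription, and they are favoured where the displaced strand is rich in G, since RNA with many G bases makes a stable hybrid with C-rich DNA. In DRIP-seq, DNA is cut with restriction enzymes, fragments with hybrids are captured by the S9.6 antibody and then sequenced, so that a peak is a stretch of chromosome in which hybrids were enriched. A bin of 100 kb with many such peaks may hold a long gene, several short genes, or neither, and the positions of the peaks tell these apart.

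Sequences are shown first, to make the DNA under these peaks visible. For the 6 bins with the most peaks, the 100 bp of a peak in which G most outnumbered C, read on the coding strand of the gene that the peak overlapped, are printed 5′ to 3′, with runs of 3 or more G in capitals. The Inpp5k stretch lies at chr11:75452264-75452363 (plus strand), the Ramp1 stretch at chr1:93126137-93126236 (plus strand) and the Tnpo2 stretch at chr8:87561394-87561493 (plus strand). The Agap1 stretch lies at chr1:91392368-91392467 (plus strand), the Map4k4 stretch at chr1:40049846-40049945 (plus strand) and the Mapk11 stretch at chr15:88974337-88974436 (minus strand), all in mm9.
Inpp5k stretch: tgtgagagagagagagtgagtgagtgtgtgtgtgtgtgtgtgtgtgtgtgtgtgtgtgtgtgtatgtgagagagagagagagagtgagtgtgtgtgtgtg
Ramp1 stretch: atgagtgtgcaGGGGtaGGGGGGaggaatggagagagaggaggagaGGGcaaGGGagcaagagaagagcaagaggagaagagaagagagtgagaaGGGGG
Tnpo2 stretch: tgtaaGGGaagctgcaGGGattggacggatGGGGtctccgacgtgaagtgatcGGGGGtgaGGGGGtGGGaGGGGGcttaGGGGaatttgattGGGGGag
Agap1 stretch: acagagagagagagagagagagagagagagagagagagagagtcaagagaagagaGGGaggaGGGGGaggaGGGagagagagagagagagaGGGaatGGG
Map4k4 stretch: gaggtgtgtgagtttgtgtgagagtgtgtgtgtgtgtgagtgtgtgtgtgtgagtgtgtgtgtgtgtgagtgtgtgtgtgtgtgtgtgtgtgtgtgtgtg
Mapk11 stretch: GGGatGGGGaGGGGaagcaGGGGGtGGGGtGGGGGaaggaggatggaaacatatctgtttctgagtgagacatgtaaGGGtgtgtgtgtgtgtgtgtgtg

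The stretches differ in kind. Those of Inpp5k and Map4k4 hold 49 and 50 G with 0 C, almost wholly in repeats of T or A alternating with G, and contain 0 runs of 3 or more G. The Tnpo2 stretch has 9 such runs and lies in an intron 0.63 kb from the transcription start site (TSS), and that of Mapk11 has 7 and lies in an intron 5.65 kb from the TSS. The Agap1 stretch, with 5 runs, begins as a repeat of A alternating with G and lies 41.0 kb into the gene, in a peak that reaches into the dense bin although the stretch itself lies before it, and the Ramp1 stretch, also with 5 runs, lies outside the gene beyond its 3′ end. The letters GGG, on the strand read, occur in 57.2% of all fixed 100 bp tiles of the autosomes, each counted on both strands, so a match is a description and not a site. The smallest surplus of G over C among the stretches shown was 43. A stretch with at least this surplus was found in 62 of the 516 peaks in dense bins that overlap genes on 1 strand (12.0%). The share was 14.9% among the other autosomal peaks of this kind, so peaks with such a stretch were no larger a part of the peaks in dense bins. Peak width, which differed between the groups, was not matched.

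The distribution of peaks over bins is given first because it set the rule. Autosomal bins held 0.929 peaks on average and a median of 0, and 14585 bins held none. Of the dense bins, 25 held 10 peaks, 13 held 11, 10 held 12, 4 held 13, and 1 each held 14 and 15. Just outside the rule were 52 bins with 9 peaks. The list falls off without a break across this limit, as the plot of bins by number of peaks shows.

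**Figure D1:**
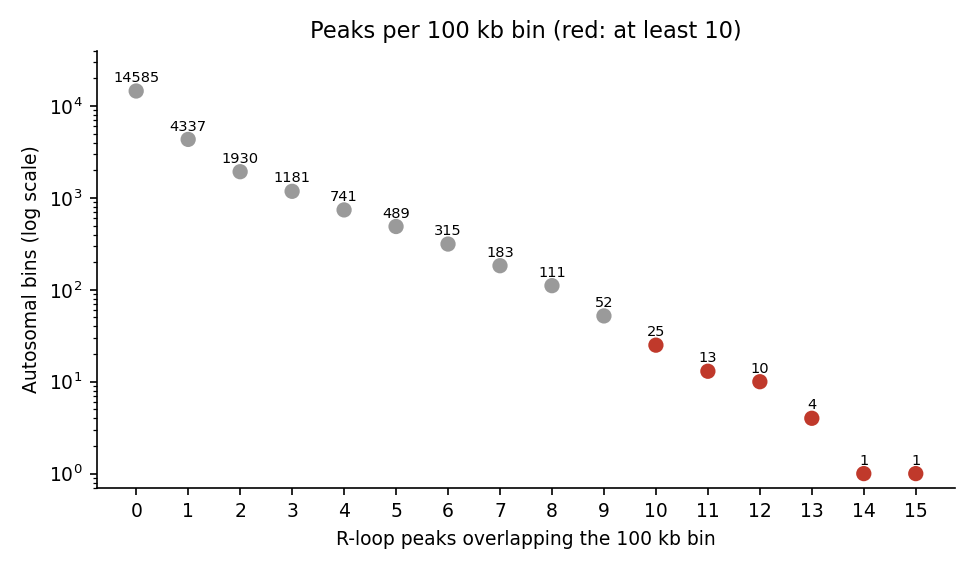
Number of autosomal 100 kb bins (log scale) by the number of R-loop peaks overlapping them, with the dense bins in red. The 25 bins with 10 peaks lie just inside the rule and the 52 bins with 9 peaks just outside it.

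The bins lay apart from each other on 18 of the 19 autosomes. Chromosomes 7 and 11 held 7 dense bins each and chromosome 8 held 5, while chromosome 3 held 0 in 1566 bins. Chromosome 11, at 14.8 peaks per Mb, and chromosome 7, at 11.5, were also among the richest in peaks, and chromosome 3 had 6.58. The only neighbouring dense bins were a run of 2 on chromosome 7, from 134900001 to 135100000. The peak shared by these bins was the 1 member counted in both, and 29 of the 593 members reached past the edge of a bin. Bins within 10 Mb of the distal chromosome end made up 11.1% of the dense bins and 7.94% of all autosomal bins.

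GC content was higher in dense bins than in most of the autosomes. The dense bins ranged from 41.6 to 53.0% with a median of 48.0%, and each of the 54 lay above the median of all autosomal bins. The other 23924 bins had a median of 41.4% and quartiles of 38.8 and 44.5%. High GC content was not particular to the dense bins, since 1997 of the other bins reached their median. The bins with 9 peaks had the same median of 48.0%, those with 5 to 8 peaks 47.0%, those with 1 to 4 peaks 43.8% and those with no peak 39.8%. The share of bins that were dense rose from 0 of 8779 below 40% GC to 0.0605% between 40 and 45%, 0.786% between 45 and 50% and 1.56% at 50% or more. The lowest values belonged to the bins of Tnpo1, encoding a nuclear import receptor, at 41.6%, and of Apc, a negative regulator of Wnt signalling, at 41.9%. The highest belonged to the bin with Sh3bp1, Lgals1 and Triobp on chromosome 15, at 53.0%. Within the dense bins, peaks and the DNA between them differed less than dense bins and the rest, with 50.4% GC inside peaks and 47.0% outside.

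The dense bins also held more CpG dinucleotides and more genes. The ratio of observed to expected CpG had a median of 0.261 in dense bins and 0.180 in the other bins, and 51 of 54 lay above the autosomal median. This was not particular to dense bins, since the median was 0.260 in bins with 9 peaks and 0.243 in those with 5 to 8. Protein-coding genes of the GENCODE M1 annotation numbered 183 over the dense bins, or 0.854% of the 21418 on autosomes, in 0.226% of the assembled bases. This was 33.9 genes per Mb, counting each gene that reached into a dense bin, whereas TSSs, which are counted once wherever they lie, numbered 25 per Mb in dense bins and 8.91 per Mb in the other bins. Gene bodies covered 81.7% of the dense bins and 39.4% of the others, and exons 11.1 and 3.06%. Bins with 9 peaks had on average 13.2% of bases in exons and 3.83 TSSs, against 11.1% and 2.50 in dense bins. Bins with 5 to 8 peaks had 10.1% and 2.65. The number of genes per dense bin was nonetheless spread widely, from 0 to 12 with a median of 2, against a median of 1 and quartiles of 0 and 2 in the other bins. Of the dense bins, 1 held no protein-coding gene, 16 held 1, 17 held 2 or 3, 12 held 4 to 6 and 8 held 7 or more. Bins with 7 or more genes were dense in 2.66% of cases and bins with 1 gene in 0.196%, yet the bins with 9 peaks had a higher median of 4 genes and a lower median share of bases in genes, 71.5 against 87.0%. At a GC content of 45 to 50%, 0.790% of bins with 1 gene were dense and 1.51% of bins with 4 or more.

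Across all 23978 bins, the number of peaks correlated with GC content (Pearson r = 0.517, Spearman rho = 0.535) and with the number of genes (r = 0.468, rho = 0.461). GC content and gene number were themselves correlated (r = 0.477, rho = 0.494), and neighbouring bins can share genes and peaks, so the values describe this list only. Among the 54 dense bins, where the rule leaves a narrow range of peak counts, the correlation was -0.04 with GC content (rho = -0.03) and 0.03 with gene number (rho = 0.03).

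**Figure D2:**
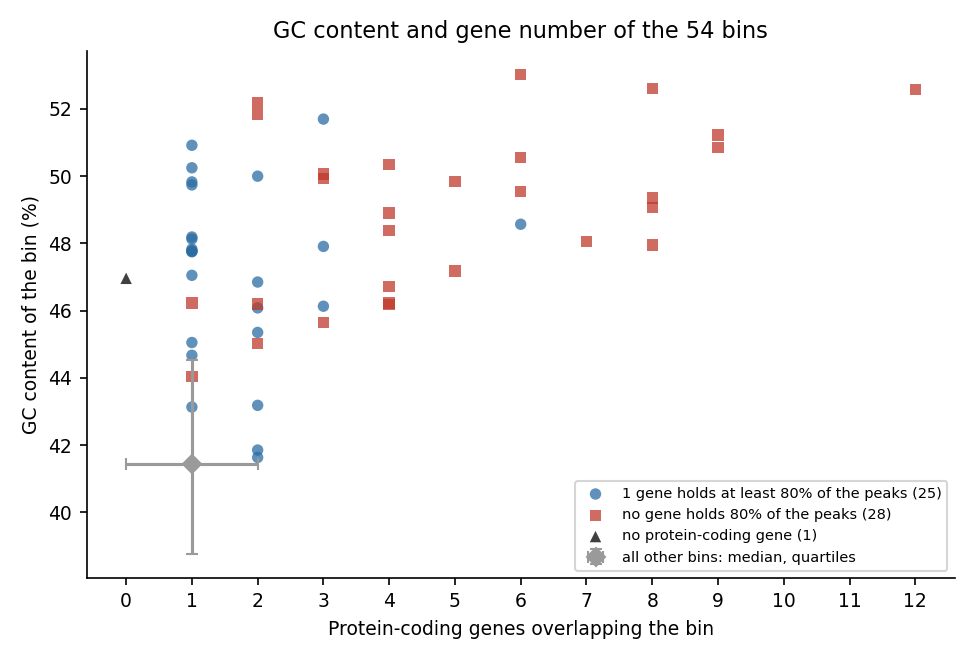
GC content of the 54 dense bins against the number of protein-coding genes overlapping them, by how the peaks are spread over genes, with the median and quartiles of the other 23924 bins as a diamond with bars. Dense bins with 1 gene range from 43.1 to 50.9% GC, and all 54 lie above 41.4%, the median of the others.

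The dense bins were sorted into kinds by how their peaks lay over genes. In 25 bins a single gene overlapped at least 80% of the peaks, in 28 bins no gene did, and 1 bin had no protein-coding gene. The limit of 80% was chosen after the data were seen, and bins lay close to it on both sides. The leading share was 80% in the bin of Myo18a and 75% in those of Cacna1a and Epn2. A gene that overlaps most peaks of a bin tends to be long. Contrasts in gene number, bases in genes, gene length and TSS peaks therefore follow in part from the split. The first kind is called leading-gene bins here and the second mixed bins. In 2 of the mixed bins, those of Fat1 and Socs5, the only protein-coding gene overlapped 6 of 10 peaks and the others lay outside it. Leading-gene bins had a median of 1 gene, 97.0% of their bases in genes and a median GC content of 47.8%. Mixed bins had a median of 4 genes, 74.3% of bases in genes and 49.2% GC, and the ranges of GC content, 41.6 to 51.7% and 44.0 to 53.0%, overlapped widely. The gene with the most peaks in a leading-gene bin had a median length of 120 kb, compared to 29.1 kb in a mixed bin. Peaks over a TSS made up 5.11% of the peaks in leading-gene bins and 16.8% in mixed bins. Peak width was similar, with medians of 1.96 and 2.08 kb, as was the share of the bin inside peaks, with medians of 27.5 and 29.1%.

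Among the mixed bins was the bin with the most peaks, from 75400001 to 75500000 on chromosome 11. It held 15 peaks and 4 genes, all on the plus strand, at 48.9% GC. Myo1c, encoding an unconventional myosin, overlapped 6 of the peaks, and Pitpna, a phosphatidylinositol transfer protein, overlapped 5. Inpp5k, an inositol polyphosphate phosphatase, and Crk, a signalling adaptor, overlapped 2 each. Of the 15 peaks, 2 covered a TSS, those of Pitpna and Crk, and the widest measured 6.04 kb. The neighbouring bins held 6 and 7 peaks. The rank of the chromosome 11 bin depended on how peaks were counted. It held 10 peaks when those closer than 1 kb were merged, while the bin of Map4k4 then held 13. The second bin, from 93100001 to 93200000 on chromosome 1, held 14 peaks at 45.7% GC, 7 of them in Ube2f, which encodes a conjugating enzyme for the ubiquitin-like protein NEDD8. Ramp1, a partner of receptors of the calcitonin family, had 3, and Scly, a selenocysteine lyase, had 2.

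Other bins with 13 or 12 peaks also held several genes. From 87500001 to 87600000 on chromosome 8, a bin of 9 genes held 13 peaks, which covered 41.5% of it. Of these peaks 11 overlapped a gene, and 8 of the genes had a peak. Tnpo2, encoding a transportin that carries proteins into the nucleus, overlapped 4 of them over 13.7 kb. 2310036O22Rik overlapped 2, and Dhps, the deoxyhypusine synthase that modifies a translation factor, overlapped 1 of 7.25 kb. In the same bin a peak of 14.2 kb reached over the whole of Junb, a subunit of the AP-1 transcription factor. On chromosome 15, from 88900001 to 89000000, 13 peaks lay among 8 genes at 52.6% GC, with 4 in Hdac10, a deacetylase, 3 in Mapk12 and 2 in Mapk11, both p38 kinases. Panx2 and Plxnb2, which reach into the edges of this bin, overlapped none of its peaks. Merging peaks closer than 1 kb left 9 peaks in this bin. On chromosome 16, from 20600001 to 20700000, 12 peaks covered 47.1% of a bin with 7 genes. Eif4g1, a scaffold of translation initiation, overlapped 4, Ece2, an endothelin-converting enzyme, 3, and Fam131a 2. On chromosome 11, from 61300001 to 61400000, Epn2, an endocytic adaptor, held 9 of 12 peaks, B9d1, a protein of the ciliary transition zone, 2, and Mapk7, a MAP kinase, 1 peak over its whole length of 5.60 kb. On chromosome 8, from 87100001 to 87200000, Cacna1a, the pore-forming subunit of a neuronal calcium channel, held 9 of 12 peaks, and Nacc1 and Ier2, a transcriptional regulator and an immediate early gene, held 1 each.

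**Figure D3:**
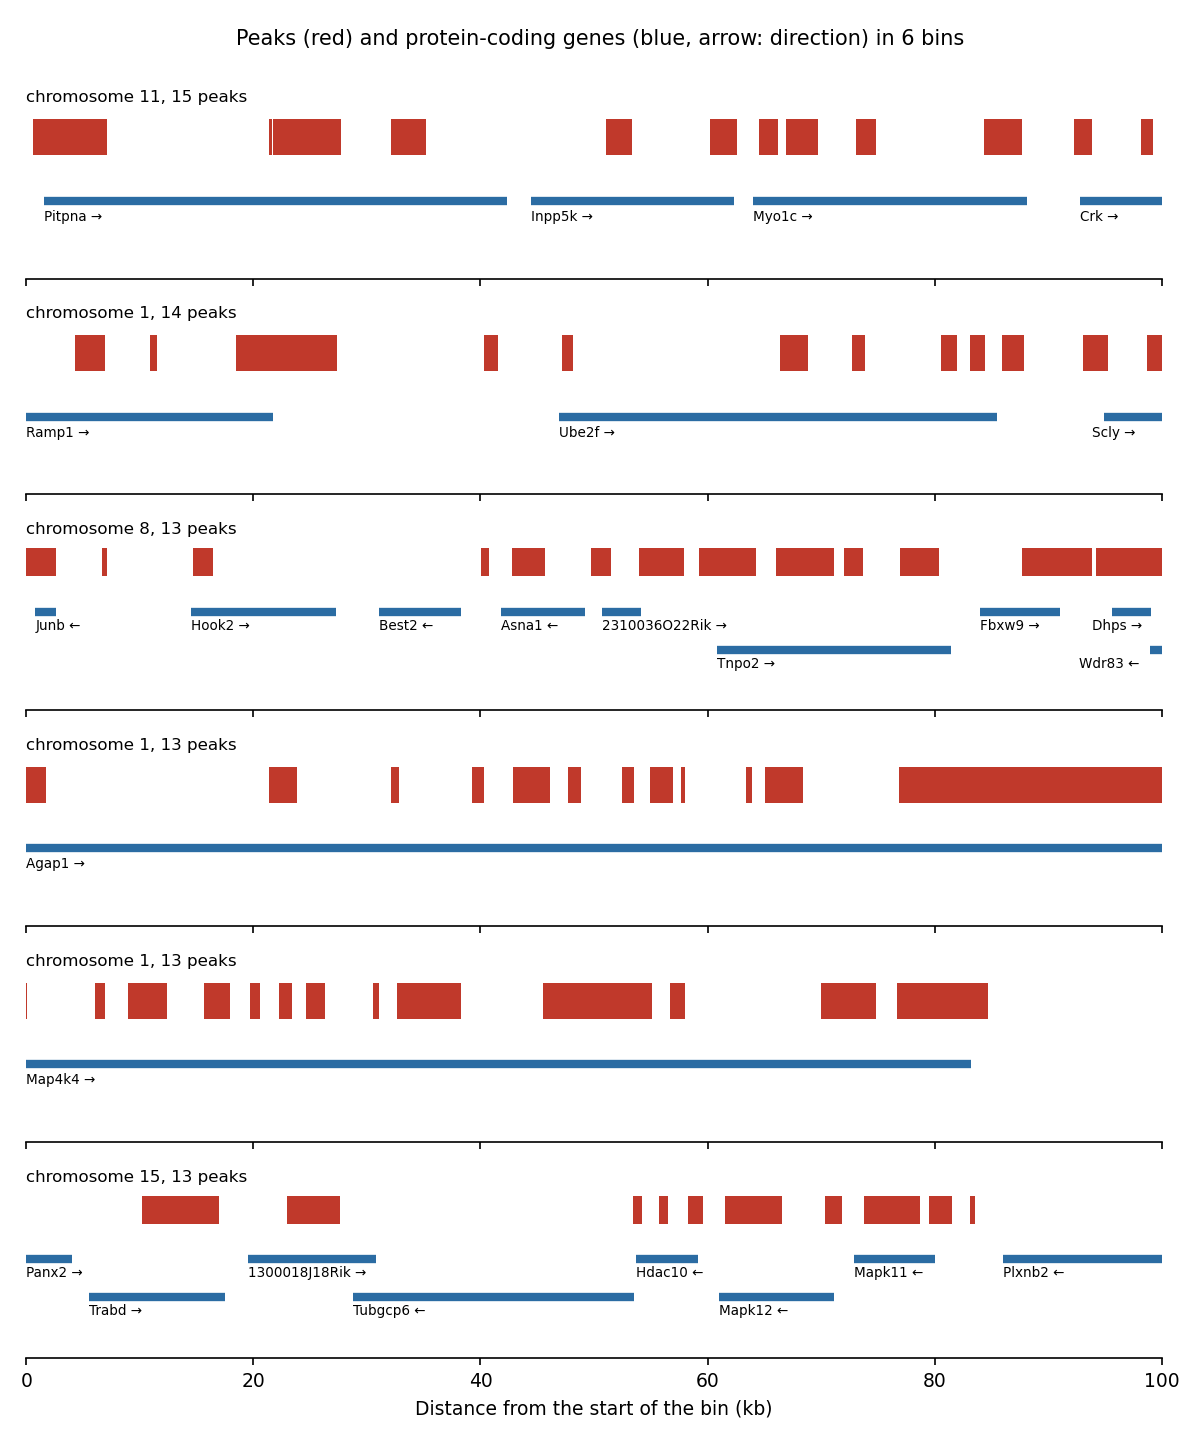
Peaks (red) and protein-coding genes (blue, with an arrow for the direction of transcription) in the 6 dense bins with the most peaks, by distance from the start of the bin in kb, clipped at its edges. Peaks 1 base apart merge to the eye, and the panels of Agap1 and Map4k4 show a single gene under all 13 peaks.

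Bins with a single protein-coding gene numbered 16, and in 14 of them the gene overlapped at least 80% of the peaks. The 5 with the most peaks, with ties ordered by covered bases, were those of Agap1, Map4k4, Zmynd8, Ppp2r5c and Lrrfip1, and in each of these every peak overlapped the gene. The bin of Lrrfip1 was tied at 11 peaks with those of Msi2, Ssbp3, Mbnl2 and Trerf1. Agap1, encoding a GTPase-activating protein for Arf, is 440.5 kb long and contained 30 peaks, of which 13 lay in the dense bin from 91400001 to 91500000 on chromosome 1. Its widest member peak, 36.7 kb from 91476861 to 91513516, reached out of the bin, and 12 of the 13 lay wholly in introns. Map4k4, a kinase of the MAP4K family, spans 125.4 kb and held 13 of its 16 peaks in the bin from 40000001 to 40100000 on chromosome 1. They were 0.571 to 9.64 kb wide and covered 36.6% of the gene, at a GC content of 45.1% over the bin. Zmynd8, a chromatin reader protein, held 12 peaks of 1.30 to 7.31 kb, and Ppp2r5c, a regulatory subunit of protein phosphatase 2A, held 12 of 0.388 to 5.94 kb. Lrrfip1 had 11 peaks that covered 56.5% of its bin, the highest share of the 54 bins.

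Most of these member peaks lay far from the start of the gene, but the place of the bin sets where member peaks can lie. In 19 of the 25 leading-gene bins, the TSS of that gene lay before the bin, and in 6 inside it. For Agap1 the midpoints of the member peaks lay 40.9 to 144 kb from the TSS, and for Map4k4 38.8 to 123 kb. Msi2, which encodes the RNA-binding protein Musashi-2 of neural stem and progenitor cells, is 426.9 kb long and contained 28 peaks. The midpoints of its 11 member peaks lay between 289 and 372 kb from the TSS, in the distal part of the gene. The bin of Foxo3, a forkhead transcription factor, holds the whole gene of 94.9 kb. The midpoints of the 10 peaks of Foxo3 ran from 0.667 to 92.5 kb from the TSS, along nearly the whole gene. Those of the 11 peaks of Tnpo1 ran from the TSS to 89.0 kb, past the end of the gene at 87.4 kb.

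Over the 20 genes with the most peaks in dense bins, the number of such peaks ran from 9 to 13, and 18 genes had at least 10. Beside the genes above, these were Ssbp3, Mbnl2, a splicing regulator, Trerf1 and Fgfr2 with 11 each. Mprip, 4933407C03Rik, Fam53b, Fnbp1, Aak1, a kinase of clathrin-mediated endocytosis, and Apc had 10 each. Rfx4, a transcription factor of brain development, and Gtf3c1, a subunit of the RNA polymerase III factor TFIIIC, had 9, as did 6 further genes that were ranked after them because peaks covered fewer of their bases. Some peaks count for 2 of these genes, since Fgfr2 is annotated in GENCODE M1 with a length of 3009 kb that includes Fam53b, and its 11 member peaks have midpoints 321 to 413 kb from the annotated TSS. An annotation of this length may join separate transcripts, so whether these peaks belong to Fgfr2 is uncertain. All 11 lie in the part of Fgfr2 nearer to its TSS, against 2 of 10 for Fam53b. Of the 215 peaks counted over these genes, 98 (45.6%) had their midpoint in the part of the gene nearer to the TSS. This share depends on where the bins lie. A member peak covered the TSS of 5 of the 20 genes. For Lrrfip1, Ssbp3, Mprip, Trerf1, Apc, Rfx4, Fgfr2 and Fam53b, a peak outside the dense bins covered the TSS. The median length of the 20 genes was 133 kb. Over all genes in dense bins it was 15.6 kb, close to the 15.5 kb of all autosomal protein-coding genes and below the 27.5 kb of those with a peak.

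**Figure D4:**
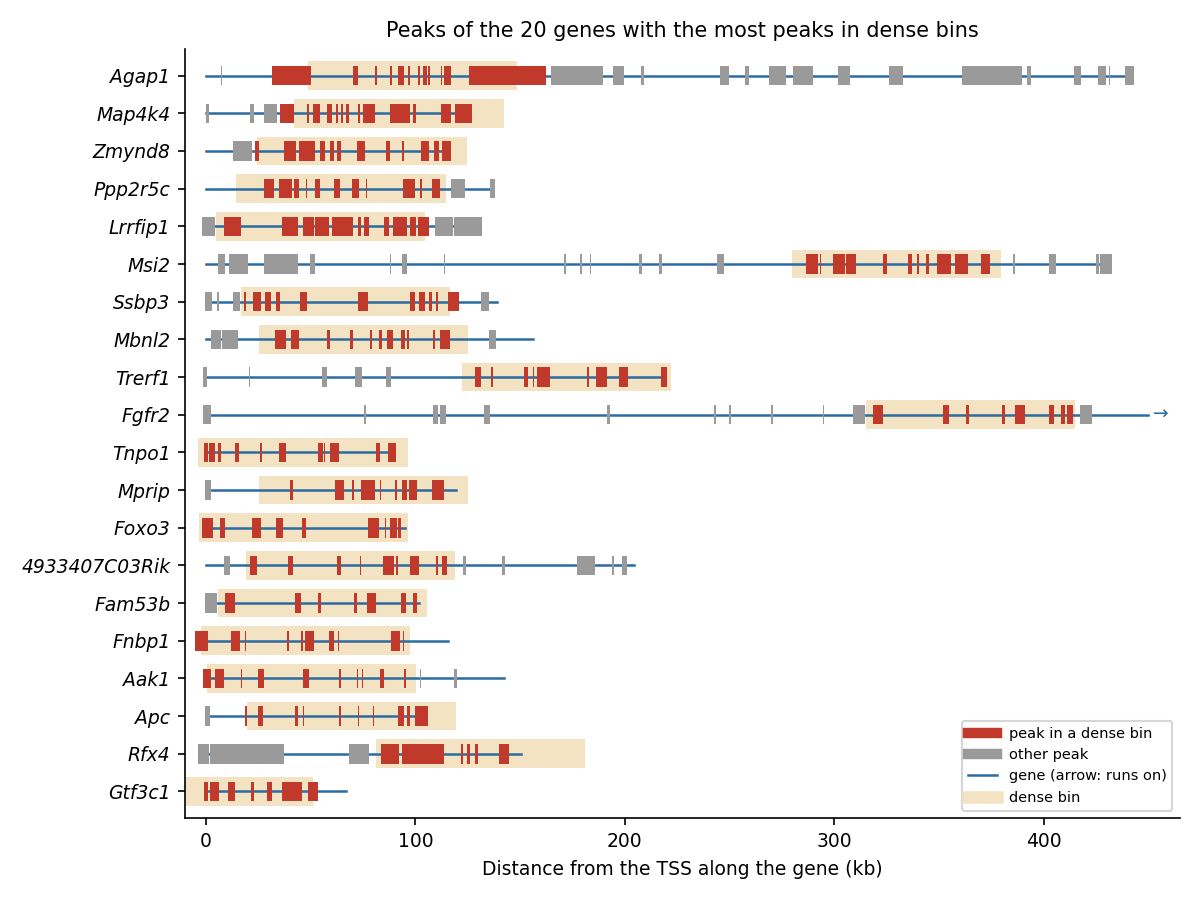
Peaks in dense bins (red) and other peaks (grey) of the 20 genes with the most peaks in dense bins, by distance in kb from the TSS along the gene (blue line, which for Fgfr2 runs on past the axis), with dense bins shaded. The midpoints of the Msi2 peaks in dense bins lie 289 to 372 kb from the TSS, and those of Foxo3 run from 0.667 to 92.5 kb.

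At the other end were bins with many short genes. The bin from 7000001 to 7100000 on chromosome 19 had the most, with 12 genes, 10 peaks and 52.6% GC. All 12 overlapped a peak, among them Bad, which promotes apoptosis, Vegfb, a growth factor, and Stip1, a co-chaperone, and 8 TSSs lay in peaks. This bin was chosen for its gene number after its values were seen.

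The remaining bin, from 31000001 to 31100000 on chromosome 6, contained no protein-coding gene but held 10 peaks at 47.0% GC. The nearest protein-coding genes were Klf14, 91.0 kb before the bin, and AB041803, 15.5 kb after it. The peaks were 0.744 to 6.17 kb wide, and all began between 4.77 and 57.2 kb from the start of the bin. The annotation placed 2 microRNA genes, 2 processed transcripts and 1 pseudogene in the bin. The gene Mir29a (31012660 to 31012747, minus strand) lay inside a peak of 0.761 kb from 31012013 to 31012773, and Mir29b-1 (31013017 to 31013097, minus strand) lay 0.243 kb past the end of that peak. MicroRNAs of the miR-29 family repress transcripts that pair with their seed, among them those of collagens and DNA methyltransferases. Their mature sequences from RefSeq (GRCm38.p6) are printed to show the microRNAs encoded in this bin, with the seed, bases 2 to 8, in capitals. The arms ending in 3p share a seed, while the 5p arms do not.
mmu-miR-29a-3p: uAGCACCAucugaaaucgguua
mmu-miR-29b-3p: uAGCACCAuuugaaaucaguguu
mmu-miR-29a-5p: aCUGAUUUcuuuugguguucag
mmu-miR-29b-1-5p: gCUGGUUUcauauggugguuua

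The dense bins held 10 annotated microRNA genes in all. Of these 7 lay wholly inside a peak (Mir29a, Mir150, Mir144, Mir451, Mir1224, Mir1894 and Mir877), 1 in part and 2 outside. Among all 1468 autosomal microRNA genes, 6.34% lay wholly inside a peak. The rule raises this count, since peaks cover 29.9% of the dense bins and 1.96% of the others. Mir144 and Mir451, known for their part in red blood cell formation, shared a peak of 2.61 kb on chromosome 11, and whether any of these microRNAs was expressed was not measured.

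Peaks in dense bins overlapped genes more often than peaks elsewhere. Of the 593 peaks, 540 (91.1%) overlapped a protein-coding gene by at least 1 bp, against 74.4% of all autosomal peaks. They lay in dense bins with more bases in genes, so the share was not compared at equal gene cover. Peaks over a TSS made up 66 of the 593, or 11.1%, near the 12.9% of all autosomal peaks. A further 7.42% covered the end of a gene, 34.7% touched an exon, 37.8% lay in introns only and 8.26% were intergenic, compared to 6.25, 22.8, 31.9 and 24.0% of the other autosomal peaks. Of the 183 genes that reached into a dense bin, 173 (94.5%) had a peak, against 40.6% of all autosomal protein-coding genes. This share follows in part from the rule, which asked for many peaks. Of the 135 TSSs in dense bins, 76 (56.3%) lay in a peak, against 15.3% over all autosomal protein-coding genes. The rule raises this share too, since peaks cover 29.9% of the dense bins and 1.96% of the others. In leading-gene bins 14 of 19 TSSs lay in a peak, and in mixed bins 62 of 116.

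The peaks themselves were wider in dense bins. Their median width was 2.00 kb with quartiles of 0.944 and 3.83 kb, compared to 1.31 kb with quartiles of 0.622 and 2.80 kb for the other autosomal peaks. The difference held for peaks over a TSS, with medians of 3.41 and 2.71 kb, and for peaks in introns, with 1.23 and 0.863 kb. The peaks had a median GC content of 50.1% against 48.7% elsewhere, while peaks over a TSS had 54.1% in dense bins and 55.4% elsewhere. Strand asymmetry was close to that of other peaks. GC skew, which is G minus C over G plus C along the coding strand, was positive in 67.2% of the 516 members with genes on 1 strand and in 66.1% of other such peaks, with medians of 0.04 in both. Runs of 3 or more G on the coding strand occurred at a median of 15.1 per kb in members and 14.1 per kb in other peaks.

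Gene lists chosen with earlier results of these data in view were then searched in the dense bins, where 0.854% of all autosomal protein-coding genes lay. Of 29 genes known for their role in neural stem and progenitor cells, 23 (79.3%) had a peak somewhere, against 40.6% of all autosomal protein-coding genes. In this list 0 genes reached into a dense bin, where Msi2 was found but is not on the list. For a list of this size, 0 is near the share of 0.854% and is not a result about these genes. The peak list holds no expression values, so that the cell type could be checked only for the presence of peaks. The Notch pathway (29 genes), splicing factors (33) and actin and tubulin genes (13) also had 0, which is likewise near that share. Of 38 growth factor receptors and their signalling partners, 2 lay in dense bins, Fgfr1 with 9 member peaks and Fgfr2, whose place there is uncertain because it rests on the long annotation described above. The Wnt pathway contributed 1 of 35 genes, Apc with 10 member peaks, and the chromatin regulators 1 of 45, the histone methyltransferase gene Setd1a with 4. Zinc finger protein genes contributed 5 of 358. Gene families that occur in large clusters were absent, with 0 of 1081 olfactory receptors, 0 of 318 vomeronasal receptors, 0 of 67 clustered histone genes, 0 of 51 keratins and 0 of 39 Hox genes. These families rarely or never contained a peak anywhere, with 4, 2, 4, 1 and 0 genes respectively. Bins outside the rule held up to 21 protein-coding genes.

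The spacing of the peaks bears on how they were counted. Neighbouring peaks in a dense bin were separated by a median of 3.50 kb, against 23.3 kb over all autosomal neighbours. Of the 540 gaps in dense bins, 33 (6.11%) were exactly 1 base long, compared to 1.37% of all gaps, and 0 were between 2 and 99 bases. Of these 33 joints, 0 lay inside or directly beside a site of the restriction enzymes used, and sites farther away were not counted. Over all autosomal neighbours, 2 of 300 such joints did (0.667%), so the 0 in dense bins is near the general share. The 33 joints fell in 17 of the 54 dense bins, up to 4 in a bin. Among these was the bin with 15 peaks, where pairs of peaks in Pitpna and in Myo1c touched in this way. Joining peaks that were 1 base apart left 43 dense bins, all of them among the 54. The DNA had been cut with EcoRI, HindIII, BsrGI, SspI and XbaI, whose sites are rich in A and T. Dense bins had fewer sites, with a median of 1.28 per kb and a range of 0.840 to 1.87, against a median of 1.85 per kb in the other bins. This was not particular to dense bins, since the median was 1.345 per kb in bins with 9 peaks and 1.36 in those with 5 to 8. The mean distance between sites was accordingly 0.769 kb in dense bins and 0.541 kb elsewhere. A site lay in 89.6% of the gaps between neighbouring peaks of dense bins and in 95.9% of all such autosomal gaps. Counting all peaks of 1 restriction fragment once left 42 dense bins. From bins with no peak to dense bins, the median GC content rose from 39.8 to 48.0%, while the median site density fell from 1.99 to 1.28 per kb. The part of the digestion in the peak counts was not tested.

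The surroundings of dense bins were richer in peaks than the autosomes as a whole. The 108 bins next to a dense bin held a median of 3 peaks and a mean of 3.38, and 33 of them (30.6%) had 5 or more, a share that was 5.02% over all autosomal bins. The mean fell to 2.57 at 200 kb, 1.76 at 1000 kb and 1.29 at 5000 kb, against 0.906 over all bins outside the rule. GC content fell more slowly, from a median of 48.0% in the dense bins to 47.5% in the next bins, 45.4% at 1000 kb and 42.4% at 5000 kb. The drop from the dense bin to its neighbours is part of the rule, which picked the bin for its count. Only 8 dense bins had another within 500 kb, and 9 of the 108 neighbouring bins held 0 peaks.

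**Figure D5:**
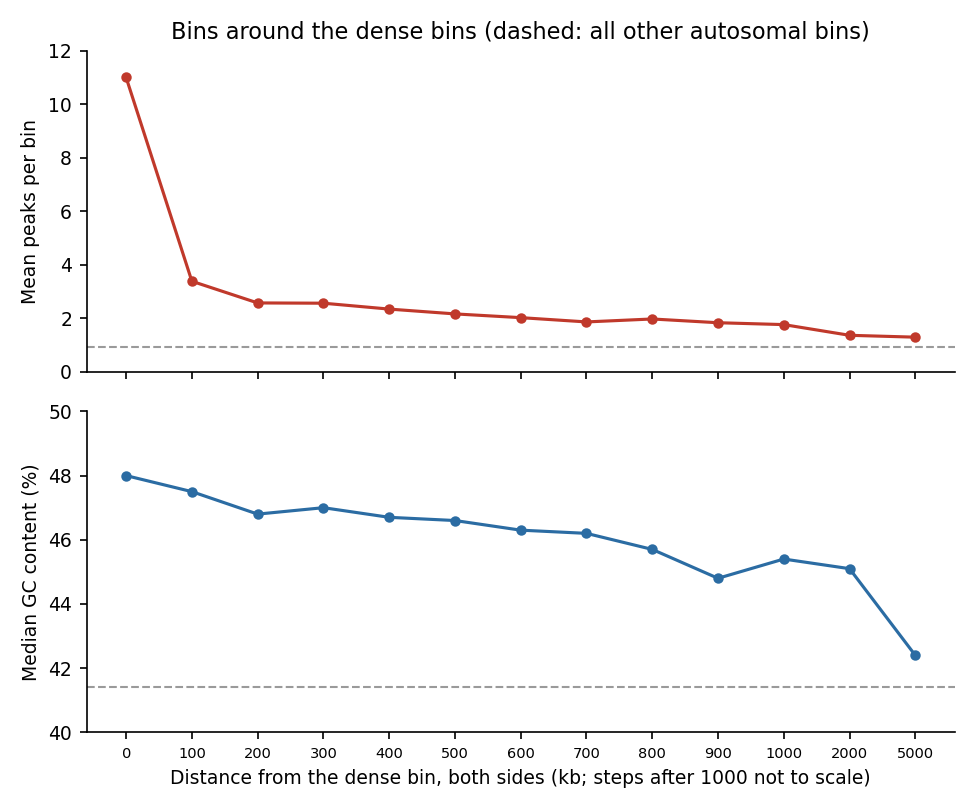
Mean number of peaks per bin (top) and median GC content (bottom) at increasing distance in kb on both sides of the dense bins, with dashed lines for the mean and median of all other autosomal bins. Peaks fall from 11 to 3.38 per bin over the first step, which the selection of the bins sets, while GC content falls from 48.0 to 47.5%.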

How the data were processed

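DRIP-seq reads had been trimmed with Trim Galore 0.6.6, aligned to NCBI37/mm9, freed of duplicates and turned into peaks with a Hidden Markov Model by the authors, per the labels and methods. The deposited file is 1 list of 22132 peaks, and its unit is the position of a peak in base pairs, with no count or signal. The input library was not analysed here. Peaks on X and Y (294) were left out by the rule. Bins were cut from the first base, a peak counted in each bin it overlapped by at least 1 bp, and genes, TSSs and exons came from GENCODE M1 (34653 autosomal genes, 21418 protein-coding). GC content was taken over assembled bases, and bins with under 50% assembled were left out of comparisons. Restriction sites were found as exact matches in the mm9 sequence. With 1 list, no test was made.

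The rule, the members and the gene lists were chosen with earlier results of these data known. Bins named were the 10 with the most peaks (10 bins tied at 12 peaks, and ties were ordered by covered bases), runs of neighbouring bins and up to 5 bins with at most 1 protein-coding gene. Genes named were up to 3 per such bin, the 20 with the most member peaks and list members with at least 5 member peaks, and further genes and the bin with the most genes were chosen after their values were seen. Stretches printed came from 6 bins, at most 1 per gene. The split by 80% of peaks in 1 gene, the joining of peaks 1 base apart and the count by restriction fragment were chosen after seeing the data. The counting steps were tested on simulated data. Calculations used Python 3.11.15, numpy 2.4.6, pandas 2.3.3, scipy 1.17.1 and matplotlib 3.10.9.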

Additional observations from a re-analysis of the deposited data

How the results depend on the processing

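The number of dense bins depended on how peaks were counted. It was 12 with peaks of at least 1 kb only (130 member peaks), 25 when peaks closer than 1 kb were merged (272 member peaks), 217 with at least 8 peaks per bin (1944 member peaks) and 16 with at least 12 (201 member peaks). Bins of 200 kb with at least 20 peaks numbered 3, with 61 member peaks, a median GC content of 46.7%, a median of 5 genes, 67.7% of bases in genes and 85.3% of peaks in genes. Shifting the bins by 50 kb gave 52 dense bins, but only 17 of the 54 were overlapped by them. Counting genes by their TSS gave a median of 1.5 per bin. The share of member peaks in a protein-coding gene was 94.6% for peaks of at least 1 kb, 87.7% with at least 8 peaks per bin, 93.5% with at least 12 and 86.2% when the midpoint had to lie in the gene. Of 62 values, 43 stayed within 1.5 times the reported count or, for medians and shares, within a 95% interval that treats bins or peaks as independent. These limits are loose, since a median of 3.5 genes passed as the same as 2, and 74.7% of bases in genes as the same as 81.7%. Several settings also kept only bins from among the 54. The count of 43 is therefore a description and no measure of stability. No paired analysis was possible because the labels give 1 DRIP sample and 1 input sample and the result comes from no test. The causes of these changes were not tested, and the list gives no depth, replicate or peak strength by which a bin could be weighed.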
